A study of Homo sapiens with 24 samples.

Results

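Glycolysis breaks glucose down to pyruvate in the cytosol, and the mRNAs of 10 of its enzymes, GAPDH, ENO1, PGK1, PKM, ALDOA, LDHA, LDHB, TPI1, PGAM1 and GPI, are described here across soluble and insoluble cytoplasm of U2OS cells, a human osteosarcoma line. They were taken by symbol as rows of the exon count table, 10 of its 60308 genes, and all 10 were among the 17666 genes tested. Cells were left as control (Ctrl, 0.12% DMSO for 2 h), exposed to sodium arsenite (NaAsO2, 500 µM for 60 min), which induces oxidative stress and stress granules, given the DDX3 helicase inhibitor RK-33 (6 µM, 1 h as pre-treatment), or given RK-33 and then NaAsO2 (Combo). All groups came from this 1 line, with no genetic change named in the labels. Each lysate was freed of nuclei by centrifugation and spun again into a soluble supernatant and an insoluble pellet enriched in ribonucleoprotein (RNP) granules, and RNA of each was sequenced after rRNA depletion, which gave 8 groups of 3 libraries. The question was how the distribution of RNA between granule-enriched and soluble cytoplasm depends on arsenite stress and on DDX3 activity. The study states that the experiment was repeated for every condition, but the labels do not say that replicates were separate cultures, so p-values measure the spread between these libraries, which may be partly technical.

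GPI, ALDOA and TPI1 act in the early steps that isomerise and split the sugar phosphates. GAPDH, PGK1, PGAM1, ENO1 and PKM carry the later steps that yield NADH, ATP and pyruvate, and the lactate dehydrogenase subunits LDHA and LDHB interconvert pyruvate and lactate. These are housekeeping enzymes without signal peptides, so their abundant mRNAs are translated on free cytosolic polysomes rather than at the endoplasmic reticulum (ER). Many of the genes are known targets of hypoxia-inducible factor (HIF1A) and MYC, which raise glycolysis in tumour cells. Arsenite blocks translation initiation, polysomes run off, and released mRNAs condense with RNA-binding proteins into stress granules, a process to which the RNA helicase DDX3 contributes.

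Promoters of the 10 genes were read from the RefSeq table (GRCh38.p14), which holds 14 starts for them, to show the sequence that the shared HIF1A and MYC background refers to. The core letters ACGTG of the HIF response element, which also lie within the E-box CACGTG bound by MYC and its partner MAX, were searched on both strands in the 250 bases before each start. They stood before at least 1 start of 6 of the 10 genes (GAPDH, PGK1, LDHA, ALDOA, TPI1 and GPI) and before 8 of the 14 starts, against 18.5% of all 35116 starts in the table. A match is a description of these letters, not a bound site, and the lack of a match in ENO1, PKM, LDHB and PGAM1 says only that the letters are not in this window. The windows of GAPDH and PGK1 are shown as those of the members with the lowest and the highest insoluble-to-soluble ratio, and that of LDHA, at the first of its listed starts, as the one with the most matches, 5. Capitals mark the matched letters on either strand. Each CACGTG is matched on both strands at overlapping bases. The 5 LDHA matches, which start at -185, -184, -87, -86 and -73, are thus fewer separate sites.
GAPDH, chr12:6535014-6535263, plus strand: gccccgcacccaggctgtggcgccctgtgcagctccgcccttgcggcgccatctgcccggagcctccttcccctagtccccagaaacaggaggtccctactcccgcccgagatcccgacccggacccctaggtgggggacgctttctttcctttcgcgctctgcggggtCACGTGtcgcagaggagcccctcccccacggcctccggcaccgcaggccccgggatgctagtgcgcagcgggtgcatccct
PGK1, chrX:78103998-78104247, plus strand: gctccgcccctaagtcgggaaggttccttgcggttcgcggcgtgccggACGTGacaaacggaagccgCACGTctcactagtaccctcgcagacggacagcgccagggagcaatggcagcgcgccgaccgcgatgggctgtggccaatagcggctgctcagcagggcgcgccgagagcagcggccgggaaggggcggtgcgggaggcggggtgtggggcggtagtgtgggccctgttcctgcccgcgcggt
LDHA, chr11:18394313-18394562, plus strand: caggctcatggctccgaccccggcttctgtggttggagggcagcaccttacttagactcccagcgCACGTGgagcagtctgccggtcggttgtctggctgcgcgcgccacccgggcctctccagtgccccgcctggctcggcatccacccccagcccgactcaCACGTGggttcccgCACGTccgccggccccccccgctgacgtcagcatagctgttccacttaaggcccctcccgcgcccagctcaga

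The 24 libraries held 8627294 to 15376554 exon counts. Counts per library were large for GAPDH (3367 to 30016), ENO1 (11329 to 39689) and PKM (16795 to 39004), and small for LDHB (36 to 647) and ALDOA (32 to 153). Markers of mesenchymal and osteoblast lineage, 9 of 10 averaging 1 CPM or more, summed to 4981 to 11490 CPM, while markers of other cell types, 4 of 10 at that level, summed to 9.31 to 18.8 CPM. The third NaAsO2 insoluble library stood apart from its replicates, with a median distance over all genes of 0.678 on the log2 scale, and to a smaller degree the third Combo insoluble library (0.335) and the third RK-33 soluble one (0.238) did too. Calls that were gained or lost without one of these 3 libraries are given beside the results. The exception is insoluble Combo against NaAsO2, where single members were not followed and only counts are given. The RNA of the signal recognition particle, RN7SL1, took 7.51 to 15.5% of soluble exon counts and 0.426 to 5.79% of insoluble ones, and intronic counts took 13.3 to 28.4% and 17.2 to 37.5% of all counts. Without the RN7SL genes the same numbers of members, 6, 9, 8 and 8, were called between fractions. Values below are TMM-scaled CPM, that is counts as a share of the library's scaled total, so a lower value in the insoluble fraction is a lower share of that fraction's RNA. Less of an mRNA per cell and fewer cells that hold it cannot be told apart in these bulk samples.

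Compared per kilobase of exon, GAPDH was the most abundant of the 10 mRNAs in Ctrl soluble cytoplasm at 696 ± 107 CPM per kb (mean ± SD, n = 3), followed by ENO1 at 429 ± 58.3. PKM (211 ± 24.4 CPM per kb), TPI1 (204 ± 27.4) and LDHA (202 ± 23.8) came next, and their replicates overlapped. PGAM1, PGK1, GPI and LDHB followed in that order at 69.6 ± 11.9, 45.7 ± 4.27, 22.7 ± 2.86 and 15.1 ± 2.84 CPM per kb, each apart from its neighbours. In the Ctrl insoluble fraction ENO1 (367 ± 31.4 CPM per kb) and GAPDH (332 ± 31.7) overlapped at the top, PKM came next at 289 ± 27.7, and PGK1 (67.4 ± 6.55) stood above PGAM1 (50.1 ± 2.64). After NaAsO2 the insoluble replicates of the leading 4, ENO1, PKM, GAPDH and TPI1, overlapped from each to the next.

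ALDOA was lowest in both Ctrl fractions, at 2.54 ± 0.618 and 1.36 ± 0.109 CPM per kb, but 54.2% of its exon bases lie in other annotated genes, 1639 nt of them in a read-through gene on the same strand. Fragments that overlap several genes were left unassigned in these files, so the ALDOA level is not comparable with the others. The shared part was 33.4% for LDHB and 17.6% for GAPDH, and at most 5.07% for the other members. LDHB shared it with a gene on its own strand that held 14 counts over all libraries, and GAPDH with an antisense gene that held 0. Fragments there were left unassigned too, so these low counts do not show how much LDHB or GAPDH lost. Their levels may be too low by an amount that was not measured, and the place of LDHB in the order carries this limit. With the length of the longest coding transcript in place of all exon bases, GAPDH and ENO1 overlapped at the top of Ctrl soluble libraries (1238 ± 191 and 1219 ± 166 CPM per kb), and 6 of 10 members held their place in the order of Ctrl soluble libraries and 6 of 10 in that of Ctrl insoluble ones.

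**Figure D1:**
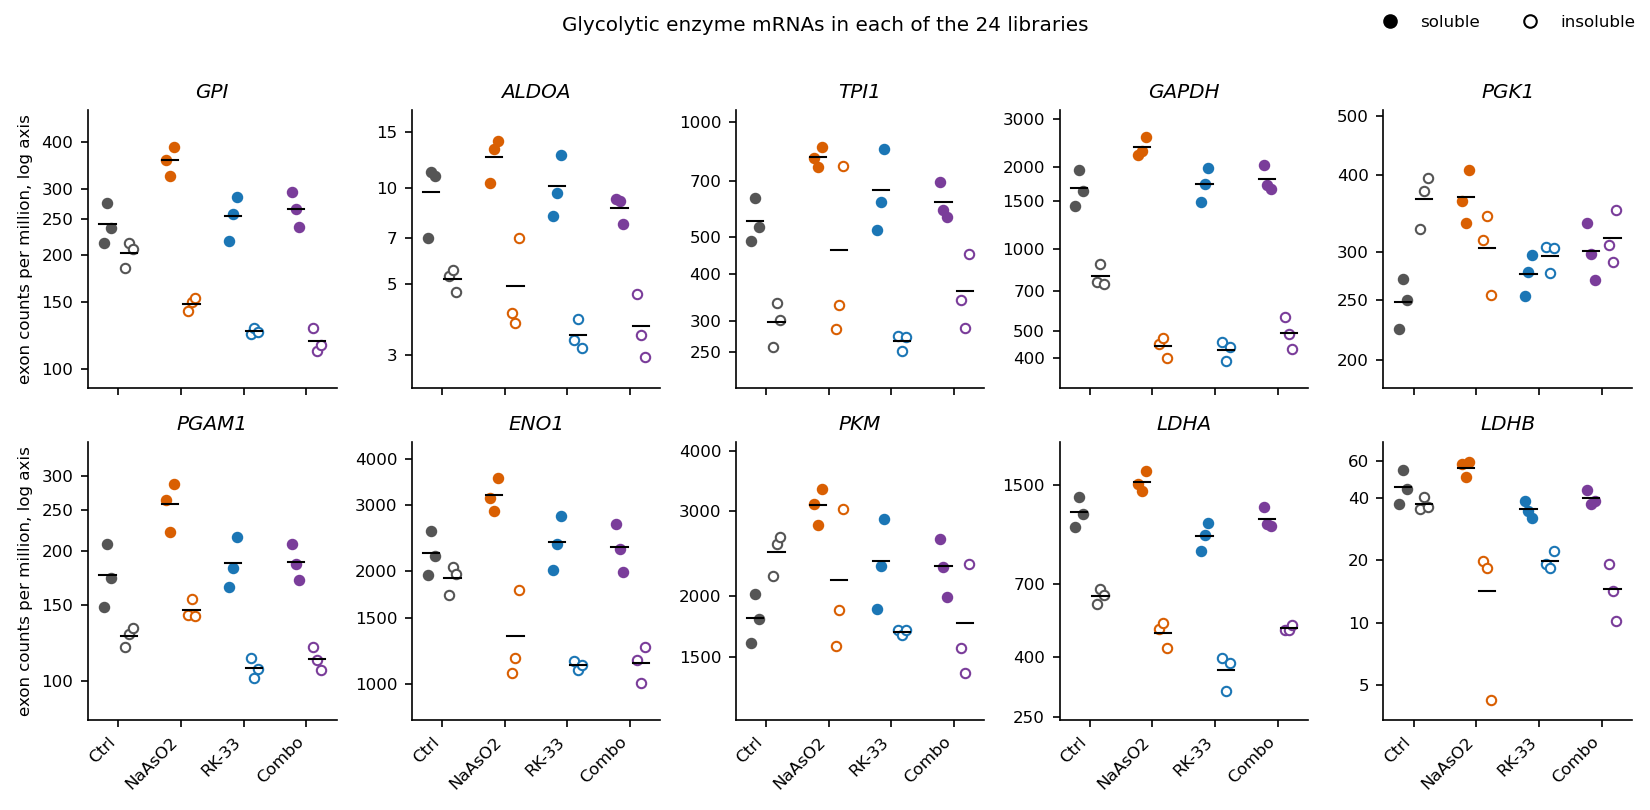
TMM-scaled CPM on a log axis for each of the 10 mRNAs in all 24 libraries, with soluble and insoluble libraries side by side for Ctrl, NaAsO2, RK-33 and Combo. GAPDH and LDHA sit lower in every insoluble library than in any soluble one, whereas PGK1 and PKM sit higher in the Ctrl insoluble libraries than in the Ctrl soluble ones.

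In control cells, 5 of the 10 mRNAs were lower in the insoluble than in the soluble fraction, 1 was higher and 4 did not pass the test. Those lower were GAPDH, LDHA, ALDOA, TPI1 and PGAM1, and the higher one was PGK1. The ALDOA calls, in Ctrl and in the other treatments, rest on the few fragments assigned to it. ALDOA shares 1639 nt with the read-through gene and its representative transcript has 1640 nt, so these calls may not describe its main mRNA. The test was edgeR's quasi-likelihood test with Benjamini-Hochberg adjustment over all 17666 genes at adjusted p under 0.05, which called 51.0% of all genes, so the share of members called is near that of genes at large. The median log2 fold change was -0.38 over the members and -0.03 over all genes tested.

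Among the early enzymes, GPI (chr19:34359480-34402413, plus strand; positions are those of the deposited table, GRCh38.p13), phosphoglucose isomerase, measured 216, 276 and 236 CPM in soluble and 185, 216 and 208 CPM in insoluble libraries. These ranges met, and the difference did not pass the test (log2 fold change -0.26 ± 0.12 SE, edgeR adjusted p = 0.0732). Triosephosphate isomerase, TPI1 (chr12:6867119-6870948, plus strand), measured 489, 633 and 532 CPM in soluble and 257, 335 and 303 CPM in insoluble libraries. Every insoluble TPI1 library was below every soluble one (log2 fold change -0.89 ± 0.26 SE, edgeR adjusted p = 0.0064). ALDOA (chr16:30064164-30070457, plus strand), the aldolase of most tissues, measured 6.98, 11.2 and 10.9 CPM and 5.30, 5.54 and 4.73 CPM, again without overlap (log2 fold change -0.90 ± 0.24 SE, edgeR adjusted p = 0.00327).

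Of the enzymes of the later steps, GAPDH (chr12:6534512-6538374, plus strand), glyceraldehyde-3-phosphate dehydrogenase, had 1435, 1944 and 1628 CPM in soluble and 758, 882 and 744 CPM in insoluble libraries. All 3 insoluble values were below all soluble ones, at 0.476 times the soluble level (log2 fold change -1.07 ± 0.14 SE, edgeR adjusted p = 1.7e-06). PGAM1 (chr10:97426191-97433444, plus strand), phosphoglycerate mutase, had 148, 209 and 173 CPM and 120, 129 and 133 CPM and was also lower without overlap (log2 fold change -0.47 ± 0.13 SE, edgeR adjusted p = 0.00391). PGK1 (chrX:77910739-78129295, plus strand), the phosphoglycerate kinase that makes the first ATP of the pathway, went the other way, with 225, 271 and 250 CPM in soluble and 327, 377 and 396 CPM in insoluble libraries. Every insoluble PGK1 library was above every soluble one, at 1.47 times the soluble level (log2 fold change 0.56 ± 0.13 SE, edgeR adjusted p = 0.000877).

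PKM (chr15:72199029-72231819, minus strand), which encodes the pyruvate kinases M1 and M2 that gene-level counts cannot separate, had 1600, 2019 and 1798 CPM in soluble and 2205, 2565 and 2652 CPM in insoluble libraries. The insoluble values were all above the soluble ones, yet the difference did not pass the test (log2 fold change 0.45 ± 0.21 SE, edgeR adjusted p = 0.0724). With each library's trend with GC content removed PKM was called higher (log2 fold change 0.51, edgeR adjusted p = 0.00363), for a split of 2 higher and 5 lower. In the uncorrected fit with introns counted beside exons the PGK1 call was lost (log2 fold change 0.35, edgeR adjusted p = 0.059), for 0 higher and 5 lower. Enolase 1, ENO1 (chr1:8861000-8879190, minus strand), had 1959, 2563 and 2195 CPM and 1733, 2050 and 1965 CPM, which overlapped (log2 fold change -0.22 ± 0.17 SE, edgeR adjusted p = 0.276).

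Of the lactate dehydrogenase subunits, LDHA was called in Ctrl and LDHB was not. LDHA (chr11:18394560-18408425, plus strand), the subunit that favours lactate formation, had 1087, 1372 and 1203 CPM in soluble and 600, 675 and 643 CPM in insoluble libraries, with no overlap (log2 fold change -0.93 ± 0.12 SE, edgeR adjusted p = 1.9e-06). LDHB (chr12:21635342-21757857, minus strand), the subunit that favours pyruvate formation, had 37.2, 54.1 and 44.2 CPM and 35.4, 40.3 and 35.9 CPM, which overlapped (log2 fold change -0.28 ± 0.29 SE, edgeR adjusted p = 0.433). The difference between the fraction effects of LDHA and LDHB was not tested.

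After NaAsO2, 9 of the 10 mRNAs were lower in the insoluble than in the soluble fraction and none was higher, where edgeR called 57.6% of all genes in either direction. The median log2 fold change of the members was -1.26, against 0.03 over all genes, and 6 members were lower by more than 2-fold, as were 15.95% of all genes. GAPDH had 2212, 2279 and 2572 CPM in soluble and 450, 475 and 399 CPM in insoluble libraries, so its insoluble level was 0.188 times the soluble one (log2 fold change -2.41 ± 0.15 SE, edgeR adjusted p = 5.7e-12). Only 1.18% of the genes tested had a more negative log2 fold change, against 9.36% in Ctrl. LDHA had 1517, 1441 and 1677 CPM in soluble and 495, 517 and 428 CPM in insoluble libraries, again far apart (log2 fold change -1.69 ± 0.12 SE, edgeR adjusted p = 1.3e-10). GPI, not called in Ctrl, measured 358, 325 and 389 CPM and 142, 150 and 154 CPM without overlap (log2 fold change -1.27 ± 0.12 SE, edgeR adjusted p = 6.2e-09).

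ENO1 measured 3148, 2908 and 3543 CPM in soluble and 1067, 1176 and 1786 CPM in insoluble libraries (log2 fold change -1.25 ± 0.17 SE, edgeR adjusted p = 1.7e-06), and PGAM1 measured 263, 222 and 287 CPM and 142, 155 and 142 CPM (log2 fold change -0.81 ± 0.13 SE, edgeR adjusted p = 1.0e-05). Both genes had no overlap between fractions, and the third ENO1 insoluble value was the highest of its group. ALDOA, with 10.4, 13.3 and 14.05 CPM against 4.06, 3.79 and 6.997 CPM, was lower as well (log2 fold change -1.38 ± 0.23 SE, edgeR adjusted p = 2.6e-05). PGK1 was the exception, with 363, 335 and 408 CPM in soluble and 314, 343 and 255 CPM in insoluble libraries, which overlapped and did not pass the test (log2 fold change -0.28 ± 0.13 SE, edgeR adjusted p = 0.0624).

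For LDHB, PKM and TPI1 the third NaAsO2 insoluble library lay far from its replicates. LDHB measured 58.03, 50.1 and 59.2 CPM in soluble and 19.9, 18.3 and 4.27 CPM in insoluble libraries (log2 fold change -1.94 ± 0.30 SE, edgeR adjusted p = 8.7e-06), and without that library its log2 fold change was -1.51. PKM measured 3103, 2816 and 3335 CPM and 1581, 1874 and 3039 CPM, where the third insoluble value lay inside the soluble range (log2 fold change -0.51 ± 0.21 SE, edgeR adjusted p = 0.0399). Without the third insoluble library PKM was at -0.80 (edgeR adjusted p = 0.000339), and its call was lost without NaAsO2 soluble replicate 1 or 3 or NaAsO2 insoluble replicate 1 or 2 (edgeR adjusted p 0.0768 to 0.315). TPI1 measured 805, 764 and 860 CPM and 287, 331 and 768 CPM, and the third insoluble value of TPI1 also reached the soluble ones (log2 fold change -0.81 ± 0.26 SE, edgeR adjusted p = 0.00952). Without that library TPI1 was at -1.35, and without the first or the second insoluble library its call was lost (edgeR adjusted p = 0.085 and 0.0575).

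The change of the fraction effect from Ctrl to NaAsO2 was tested as an interaction term, which asks whether the insoluble-to-soluble ratio itself differed between treatments. It was called for 7 of 10 members, all toward a lower ratio after NaAsO2, against 22.3% of all genes in either direction, and the median change was -0.90 over the members and -0.02 over all genes. The log2 ratio changed by -1.34 ± 0.20 SE (edgeR adjusted p = 4.8e-05) for GAPDH, by -1.01 ± 0.17 SE (edgeR adjusted p = 0.000174) for GPI and by -0.84 ± 0.18 SE (edgeR adjusted p = 0.0017) for PGK1. For ENO1 the change was -1.03 ± 0.24 SE (edgeR adjusted p = 0.00361), for LDHA -0.75 ± 0.17 SE (edgeR adjusted p = 0.00299) and for LDHB -1.66 ± 0.41 SE (edgeR adjusted p = 0.00577). Without the third NaAsO2 insoluble library LDHB was at -1.18, and fitted on the compared groups alone its call was lost (edgeR adjusted p = 0.0661). With the GC trend removed the LDHA call was lost, at -0.48 (edgeR adjusted p = 0.0653). PKM went from a positive to a negative log2 ratio, a change of -0.97 ± 0.29 SE (edgeR adjusted p = 0.0213), though this call was lost without Ctrl soluble replicate 1 or 3, Ctrl insoluble replicate 3, NaAsO2 soluble replicate 3 or NaAsO2 insoluble replicate 1 (edgeR adjusted p 0.0503 to 0.0811).

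Changes of the ratio that did not pass the test were -0.48 ± 0.33 SE (edgeR adjusted p = 0.314) for ALDOA, -0.34 ± 0.18 SE (edgeR adjusted p = 0.181) for PGAM1 and 0.07 ± 0.36 SE (edgeR adjusted p = 0.904) for TPI1. The TPI1 value turned to -0.42 without the third NaAsO2 insoluble library (edgeR adjusted p = 0.179). Over same-numbered soluble and insoluble libraries, set side by side by number only, the GAPDH log2 ratio was -1.06 ± 0.12 in Ctrl and -2.42 ± 0.24 after NaAsO2 (mean ± SD, n = 3), and the PGK1 log2 ratio was 0.56 ± 0.10 and -0.29 ± 0.36. For 8 of the members the ratio was negative in 12 of 12 such pairs over all treatments, while it was negative in 8 of 12 for PKM and in 5 of 12 for PGK1.

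**Figure D2:**
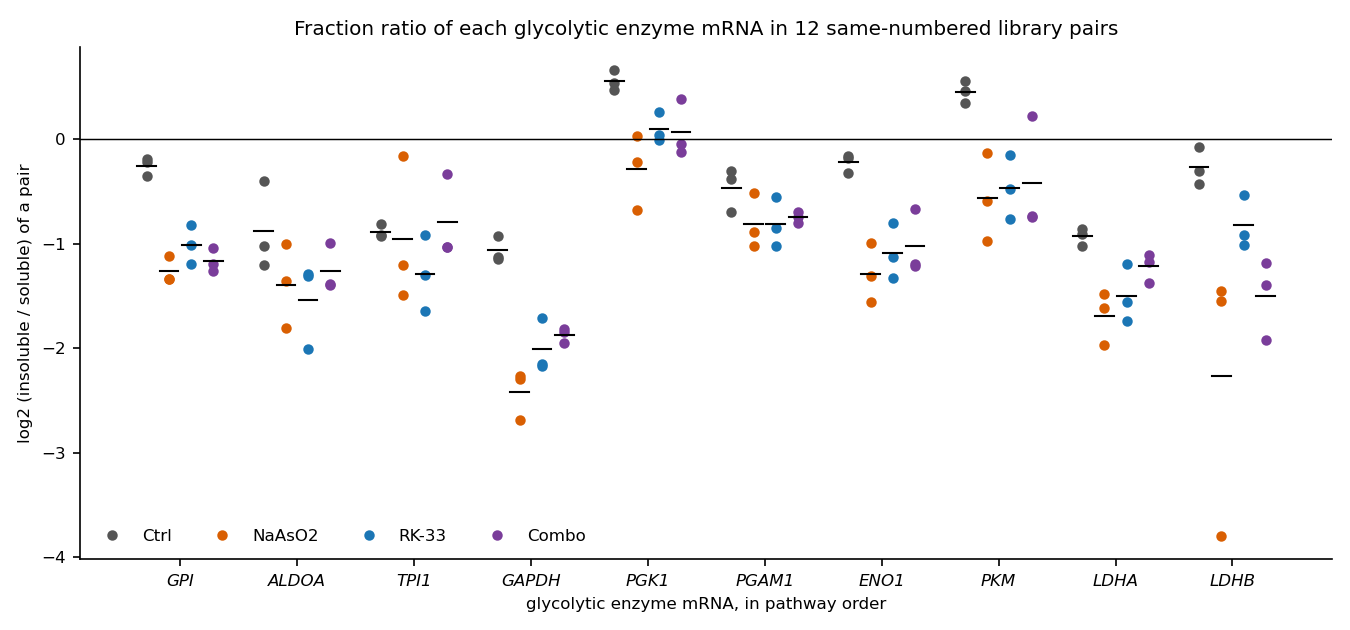
Log2 ratio of insoluble to soluble TMM-scaled CPM for each same-numbered pair of libraries, for each of the 10 mRNAs under Ctrl, NaAsO2, RK-33 and Combo, with points for the 3 pairs and a line for their mean. GAPDH, ENO1, GPI, LDHA, LDHB, PKM and PGK1 lie lower in all 9 treated pairs than in the 3 Ctrl pairs. PGK1 and PKM lie on both sides of 0.

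**Figure D3:**
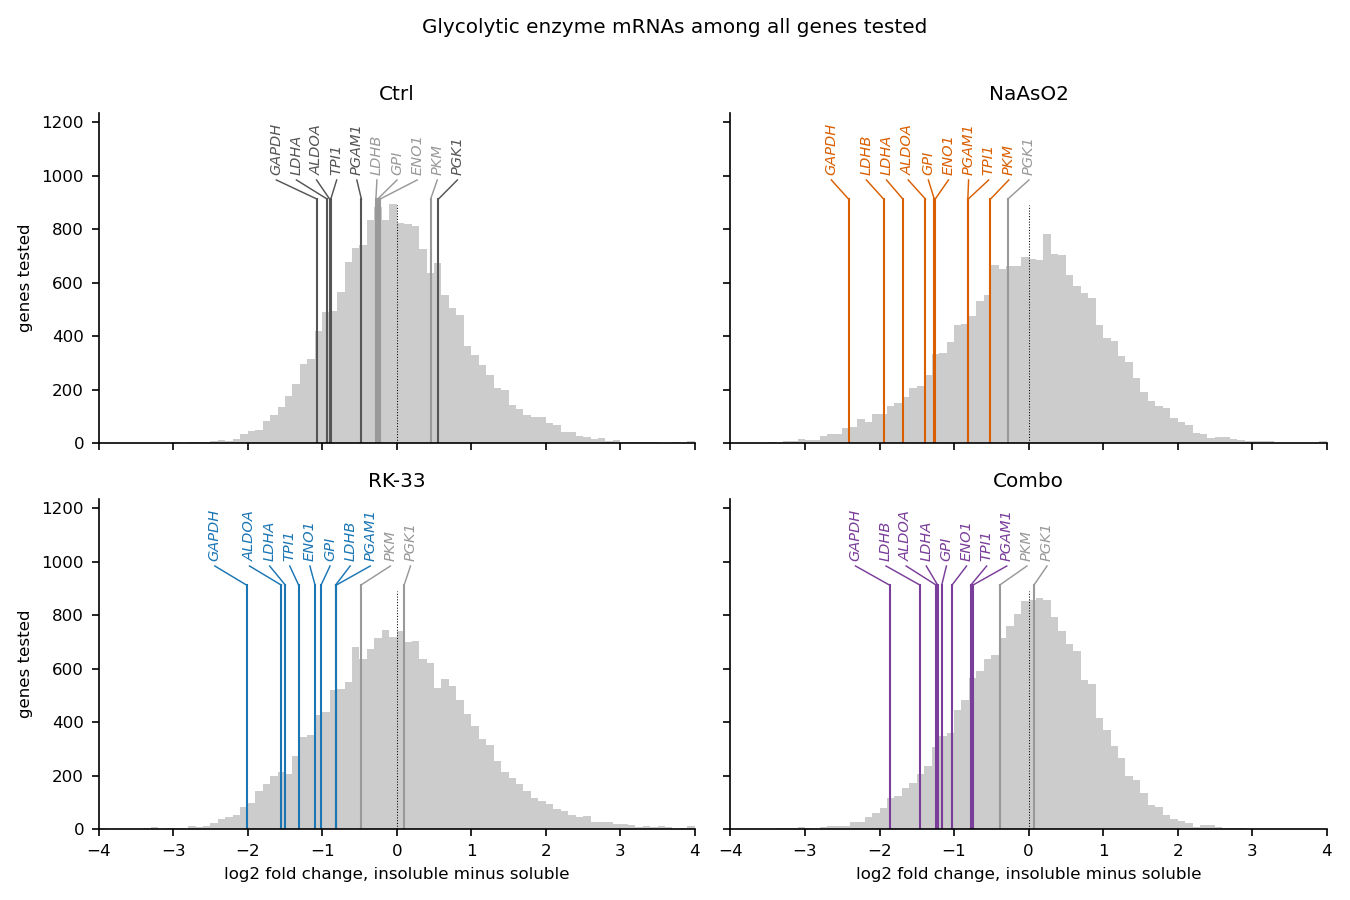
Histograms of the log2 fold change between fractions over all 17666 tested genes in each of the 4 treatments. The 10 members are marked by lines named above the bars, and a dotted line marks no change. The members' median lies at -0.38 in Ctrl and at -1.26, -1.06 and -1.10 under NaAsO2, RK-33 and Combo, while the median of all genes lies between -0.03 and 0.03.

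Under RK-33 alone most of the enzymes had a lower insoluble than soluble level. In RK-33 cells 8 of 10 members were lower in the insoluble fraction and none was higher, where edgeR called 59.6% of all genes, and the median was -1.06 against -0.01 over all genes. GAPDH measured 1489, 1726 and 1975 CPM in soluble and 456, 389 and 440 CPM in insoluble libraries (log2 fold change -2.01 ± 0.14 SE, edgeR adjusted p = 2.3e-10). LDHA measured 907, 1027 and 1123 CPM and 396, 307 and 382 CPM (log2 fold change -1.49 ± 0.12 SE, edgeR adjusted p = 1.8e-09), and GPI 219, 257 and 286 CPM and 124, 128 and 125 CPM (log2 fold change -1.02 ± 0.12 SE, edgeR adjusted p = 2.4e-07). In all 3 genes every insoluble library was below every soluble one.

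TPI1, with 520, 617 and 852 CPM in soluble and 275, 251 and 272 CPM in insoluble RK-33 libraries, was lower too (log2 fold change -1.32 ± 0.26 SE, edgeR adjusted p = 0.00016), and so was ENO1, with 2011, 2364 and 2815 CPM and 1154, 1087 and 1122 CPM (log2 fold change -1.10 ± 0.17 SE, edgeR adjusted p = 1.2e-05). The third soluble library was the highest of its group for both. PGAM1 had a log2 fold change of -0.81 ± 0.13 SE (edgeR adjusted p = 1.4e-05), ALDOA of -1.55 ± 0.24 SE (edgeR adjusted p = 1.2e-05) and LDHB of -0.82 ± 0.30 SE (edgeR adjusted p = 0.0208), the last lost without RK-33 soluble replicate 1 or RK-33 insoluble replicate 1 or 2 (edgeR adjusted p 0.0603 to 0.0697). PKM, at 1884, 2310 and 2896 CPM against 1704, 1664 and 1706 CPM, did not overlap but stood just outside the threshold (log2 fold change -0.48 ± 0.21 SE, edgeR adjusted p = 0.05004). PGK1, at 254, 278 and 296 CPM against 305, 277 and 305 CPM, overlapped (log2 fold change 0.10 ± 0.13 SE, edgeR adjusted p = 0.513).

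The change of the fraction effect from Ctrl to RK-33 was called for GAPDH, at -0.94 ± 0.20 SE (edgeR adjusted p = 0.0122), and for GPI, at -0.76 ± 0.17 SE (edgeR adjusted p = 0.0168), or 2 of 10 members against 2.18% of all genes. The other 8 members had values from -0.94 to -0.34 that did not pass the test, among them ENO1 at -0.87 ± 0.24 SE (edgeR adjusted p = 0.059) and PKM at -0.94 ± 0.29 SE (edgeR adjusted p = 0.105). The GAPDH call was lost without Ctrl soluble replicate 1 or RK-33 soluble replicate 3 (edgeR adjusted p 0.0532 to 0.0562) and the GPI call without Ctrl soluble replicate 1 or 3, Ctrl insoluble replicate 2, RK-33 soluble replicate 2 or 3 or RK-33 insoluble replicate 3 (edgeR adjusted p 0.0518 to 0.0779). With same-numbered libraries as a replicate block the GPI call was lost (edgeR adjusted p = 0.0506), which left 1 of 10. Leaving out 1 library at a time gave 0 to 3 called members, 0 of them without RK-33 soluble replicate 3, and counting exons and introns together gave 0. The comparisons of NaAsO2 and of RK-33 with Ctrl use the same Ctrl libraries, so their values are set side by side only. For GAPDH they were -1.34 and -0.94, and for GPI -1.01 and -0.76.

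With both compounds, 8 of 10 members were lower in the insoluble fraction and none was higher, where edgeR called 52.1% of all genes, and the median was -1.10 against -0.00 over all genes. GAPDH measured 2024, 1714 and 1665 CPM in soluble and 564, 488 and 432 CPM in insoluble libraries (log2 fold change -1.86 ± 0.14 SE, edgeR adjusted p = 6.0e-10). LDHB measured 43.6, 37.5 and 38.5 CPM and 19.2, 14.3 and 10.2 CPM (log2 fold change -1.46 ± 0.30 SE, edgeR adjusted p = 0.000299), and TPI1 698, 588 and 565 CPM and 342, 289 and 450 CPM (log2 fold change -0.78 ± 0.26 SE, edgeR adjusted p = 0.0141). Each of the 3 had no overlap, and TPI1 lost its call without the second insoluble library (edgeR adjusted p = 0.0634). The other called members were ENO1 (-1.03), LDHA (-1.22), GPI (-1.17), ALDOA (-1.24) and PGAM1 (-0.75). PGK1 (335, 298 and 269 CPM against 308, 289 and 352 CPM, log2 fold change 0.07 ± 0.13 SE, edgeR adjusted p = 0.659) and PKM (2630, 2306 and 1996 CPM against 1567, 1389 and 2338 CPM, log2 fold change -0.39 ± 0.21 SE, edgeR adjusted p = 0.122) overlapped. Without the third Combo insoluble library, PKM was called at -0.69 (edgeR adjusted p = 0.00772).

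The fraction effect under Combo was compared with that under each agent alone. None of the 10 members was called against NaAsO2, where edgeR called 0.357% of all genes and 2 members had an unadjusted p under 0.05. DESeq2 called the same number, 0. In the fit of all libraries the changes of the log2 ratio ran from 0.03 to 0.55, all toward a higher ratio under Combo. With 1 library left out at a time, the members' median change ran from -0.02 to 0.33, so this direction did not hold in every fit. Against RK-33, where edgeR called 0.481% of all genes, none was called either, 0 members had an unadjusted p under 0.05, DESeq2 called 0, and the changes ran from -0.63 to 0.54.

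Within the soluble fraction, NaAsO2 was followed by higher levels of 6 of the 10 enzymes than in Ctrl, and none was lower, while edgeR called 13.3% of all genes. The members' log2 fold changes ran from 0.30 to 0.77, with a median of 0.53 against 0.03 over all genes. PKM rose by 0.77 ± 0.21 SE (edgeR adjusted p = 0.0169) on the log2 scale, from 1806 ± 209 CPM to 3085 ± 260 CPM (mean ± SD, n = 3), PGK1 by 0.57 ± 0.13 SE (edgeR adjusted p = 0.00476) and GPI by 0.56 ± 0.12 SE (edgeR adjusted p = 0.00316). PGAM1 rose by 0.54 ± 0.13 SE (edgeR adjusted p = 0.00699), ENO1 by 0.52 ± 0.17 SE (edgeR adjusted p = 0.0471) and GAPDH by 0.50 ± 0.14 SE (edgeR adjusted p = 0.02). In 8 of the 10 members, all but 2 that did not pass the test, LDHB and ALDOA, the NaAsO2 libraries lay wholly above the Ctrl libraries, where the libraries of these groups did not overlap, in either direction, in 48.6% of all genes. Leaving out 1 library gave 1 to 5 calls, and only GPI was called in every such fit. The ENO1 call was lost whichever of the 6 libraries was left out, the GAPDH call without Ctrl soluble replicate 1 or 3 or NaAsO2 soluble replicate 3, the PKM call without Ctrl soluble replicate 1 or 3 or NaAsO2 soluble replicate 3 and the PGAM1 call without Ctrl soluble replicate 1 or NaAsO2 soluble replicate 3, and without Ctrl soluble replicate 1, the lowest of its group for all 10 members, GPI was the only call. Scaled by library size alone, which moved the median of all genes by -0.18, 4 members were called.

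For RK-33 alone against Ctrl, none of the 10 soluble levels was called, where edgeR called 5.33% of all genes. The log2 fold changes ran from -0.36 to 0.39, 1 member had an unadjusted p under 0.05, and DESeq2 also called 0. Compared with NaAsO2, Combo soluble levels were lower for LDHA at -0.41 ± 0.12 SE (edgeR adjusted p = 0.044), PGAM1 at -0.45 ± 0.13 SE (edgeR adjusted p = 0.0383) and GPI at -0.43 ± 0.12 SE (edgeR adjusted p = 0.0315), or 3 of 10 against 6.46% of all genes. All 10 values were negative, from -0.53 to -0.29, and 9 of the members had no overlap between the groups, against 42.8% of all genes. The GPI call was lost without NaAsO2 soluble replicate 1 or 3 or Combo soluble replicate 2 or 3, the PGAM1 call without NaAsO2 soluble replicate 1 or 3 or Combo soluble replicate 1, 2 or 3, and the LDHA call whichever of the 6 libraries was left out, so that leaving out 1 library gave 0 to 2 calls. With the replicate number as a block LDHA was no longer called (edgeR adjusted p = 0.0558). Compared with RK-33, no soluble level was called under Combo, where edgeR called 3.65% of all genes, 0 members had an unadjusted p under 0.05, DESeq2 called 0 and values ran from -0.22 to 0.19.

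Within the insoluble fraction, NaAsO2 was followed by lower levels of 5 enzymes, GAPDH, LDHB, LDHA, GPI and ENO1, and none was higher. Of all genes edgeR called 43.1% in either direction, a like share of calls, and 21.8% as lower. GAPDH fell from 795 ± 75.9 CPM to 441 ± 38.4 CPM (log2 fold change -0.85 ± 0.14 SE, edgeR adjusted p = 7.4e-05), and GPI from 203 ± 15.8 CPM to 149 ± 6.10 CPM (log2 fold change -0.45 ± 0.12 SE, edgeR adjusted p = 0.00452), both without overlap. LDHB had a log2 fold change of -1.36 ± 0.30 SE (edgeR adjusted p = 0.00116), and of -0.90 without the third NaAsO2 library. The values were -0.41 ± 0.12 SE (edgeR adjusted p = 0.00937) for LDHA and -0.51 ± 0.17 SE (edgeR adjusted p = 0.0188) for ENO1, and the LDHA call was lost without NaAsO2 insoluble replicate 1 or 3 (edgeR adjusted p 0.0509 to 0.0818), the ENO1 call without Ctrl insoluble replicate 2 or 3 or NaAsO2 insoluble replicate 1 or 2 (edgeR adjusted p 0.0524 to 0.153). Counting introns with exons gave 2 lower and 2 higher members in place of 5 and 0, since GPI at -0.05 (edgeR adjusted p = 0.813), LDHA at -0.15 (edgeR adjusted p = 0.457) and ENO1 at -0.28 (edgeR adjusted p = 0.215) lost their calls, and TPI1 at 0.88 (edgeR adjusted p = 0.00943) and PGAM1 at 0.44 (edgeR adjusted p = 0.026) were called higher. With the GC trend removed LDHA was at -0.10 (edgeR adjusted p = 0.579). On the compared groups alone GAPDH kept its call and the other 4 lost theirs.

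Among the members that did not pass the test, TPI1 had 0.63 ± 0.26 SE (edgeR adjusted p = 0.0507) for NaAsO2 against Ctrl in the insoluble fraction. That value came to 0.12 without the third NaAsO2 library, whose TPI1 level was 768 CPM against 287 and 331 CPM in the other two. By DESeq2 and without the RN7SL genes TPI1 was called higher (adjusted p = 0.0243 and 0.0389), for a split of 1 higher and 5 lower. PGAM1 had 0.20 ± 0.13 SE (edgeR adjusted p = 0.207), with all NaAsO2 libraries above the Ctrl ones, and PGK1 had -0.27 ± 0.13 SE (edgeR adjusted p = 0.087). For PKM the value was -0.19 ± 0.21 SE (edgeR adjusted p = 0.472), and without the third NaAsO2 library it was called at -0.45 (edgeR adjusted p = 0.0434).

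RK-33 alone was followed by lower insoluble levels of 5 genes, GAPDH, LDHA, ENO1, GPI and LDHB, or 5 of 10 members against 13.9% of all genes. GAPDH measured 428 ± 35.1 CPM against 795 ± 75.9 CPM in Ctrl (log2 fold change -0.89 ± 0.14 SE, edgeR adjusted p = 0.000137), and LDHA 362 ± 47.7 CPM against 639 ± 37.7 CPM (log2 fold change -0.82 ± 0.12 SE, edgeR adjusted p = 8.1e-05). ENO1 had a log2 fold change of -0.77 ± 0.17 SE (edgeR adjusted p = 0.00337), GPI of -0.69 ± 0.12 SE (edgeR adjusted p = 0.00036) and LDHB of -0.90 ± 0.30 SE (edgeR adjusted p = 0.0444), and the LDHB call was lost in all 6 fits that left out 1 library. The other 5 values, from -0.58 to -0.16, did not pass the test, and 9 of the 10 members, all but TPI1, had no overlap between the groups, against 43.7% of all genes. This comparison and that of NaAsO2 share the Ctrl libraries.

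In the insoluble fraction Combo gave 0 called members against NaAsO2 and 1 against RK-33. Against NaAsO2 none was called by edgeR, which called 13.8% of all genes, with 2 members at an unadjusted p under 0.05, PGAM1 at -0.38 ± 0.13 SE (edgeR adjusted p = 0.0515) and GPI at -0.33 ± 0.12 SE (edgeR adjusted p = 0.0641). DESeq2 called 2 members there. Same-numbered libraries of these 2 groups deviated together (r = 0.459, 0.383 and 0.667), while differently numbered ones ran from -0.710 to 0.593. With the number as a replicate block in these groups, a fit chosen after seeing the data, PGAM1 and GPI were called lower (edgeR adjusted p = 0.0154 and 0.0241). From 0 to 3 were called when 1 library was left out, with 0 only without NaAsO2 insoluble replicate 2 or Combo insoluble replicate 1 or 2. Leaving out the third library of either group thus gained calls. Against RK-33, where edgeR called 7.12% of all genes, LDHA was higher under Combo, at 498 ± 10.1 CPM against 362 ± 47.7 CPM (log2 fold change 0.46 ± 0.12 SE, edgeR adjusted p = 0.0221), with no overlap. This call was lost without RK-33 insoluble replicate 2 or Combo insoluble replicate 1 or 3 (edgeR adjusted p 0.053 to 0.157), and the other 9 members had values from -0.45 to 0.44.

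Summed over the 10 genes, the members held 0.870 ± 0.0829% of soluble and 0.687 ± 0.0460% of insoluble exon counts in Ctrl (mean ± SD, n = 3). After NaAsO2 these shares were 1.13 ± 0.0683% and 0.512 ± 0.0539%, under RK-33 0.897 ± 0.0809% and 0.463 ± 0.0221%, and under Combo 0.910 ± 0.0702% and 0.478 ± 0.0522%. Within that sum, ENO1 and PKM took the most in every group, and the mix differed between fractions. GAPDH came next except in insoluble NaAsO2 and Combo libraries. There GAPDH held 8.38 ± 2.32% against 9.12 ± 2.62% for LDHA after NaAsO2, and both held 10.5% under Combo. PKM made up 22.03 ± 0.382% of the members' counts in Ctrl soluble and 36.04 ± 1.21% in Ctrl insoluble libraries, and GAPDH 20.3 ± 0.446% and 11.6 ± 0.950%. ENO1 took 27.3 ± 0.119% and 27.9 ± 0.234%, so its part in the sum was almost level, and PGK1 took 3.04 ± 0.122% and 5.34 ± 0.219%. For PKM, GAPDH and PGK1 the Ctrl insoluble libraries did not overlap the Ctrl soluble ones.

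**Figure D4:**
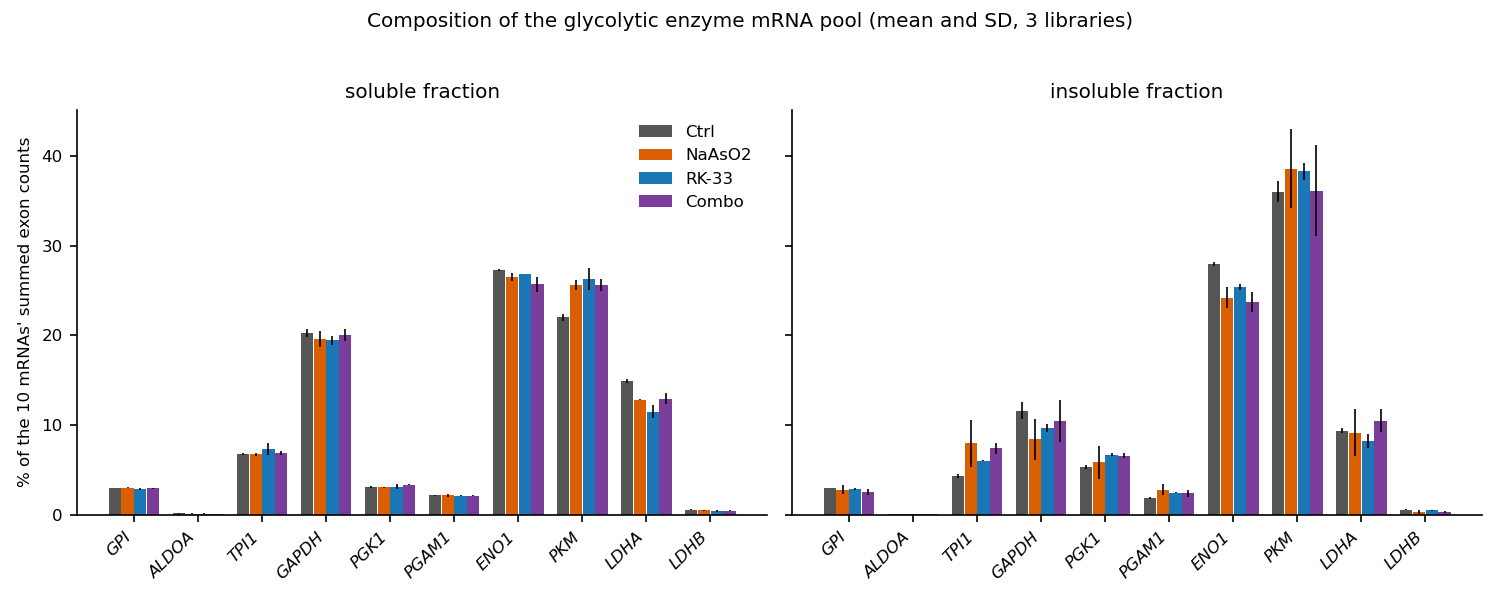
Percent of the summed exon counts of the 10 genes held by each gene, as bars for the mean of 3 libraries with the SD. Treatments stand side by side for each gene, and each fraction has its own panel, for 8 groups in all. The PKM part is 22.03% in Ctrl soluble and 36.04% in Ctrl insoluble libraries. The GAPDH bar of each treatment is lower in the insoluble panel than in the soluble one.

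Intronic counts were low for most of the genes and differed between members. Of the counts assigned to GPI, 6.69 ± 1.77% (mean ± SD, n = 3) were intronic in Ctrl soluble and 18.4 ± 1.66% in Ctrl insoluble libraries. Over all groups GPI had 3.20 to 8.46% in soluble and 15.7 to 37.2% in insoluble libraries, with no overlap within any treatment. The 37.2% was that of the third NaAsO2 insoluble library, which stood apart, against 18.1 and 17.9% in its replicates. TPI1 had 6.41 ± 0.845% in Combo insoluble libraries, all 3 above the 0.987 to 2.90% of the other insoluble libraries. GAPDH had 3.24 ± 0.144% in Combo insoluble libraries, where 1.21 ± 0.0641% were intronic in Ctrl. These shares were given no test of their own. Over all genes, the intron share was 20.6% of soluble and 33.4% of insoluble counts in Ctrl and 21.99% and 27.5% in Combo, so the library-wide share was higher in the insoluble fraction as for GPI, and lower in Combo than in Ctrl insoluble libraries, unlike for TPI1 and GAPDH.

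**Figure D5:**
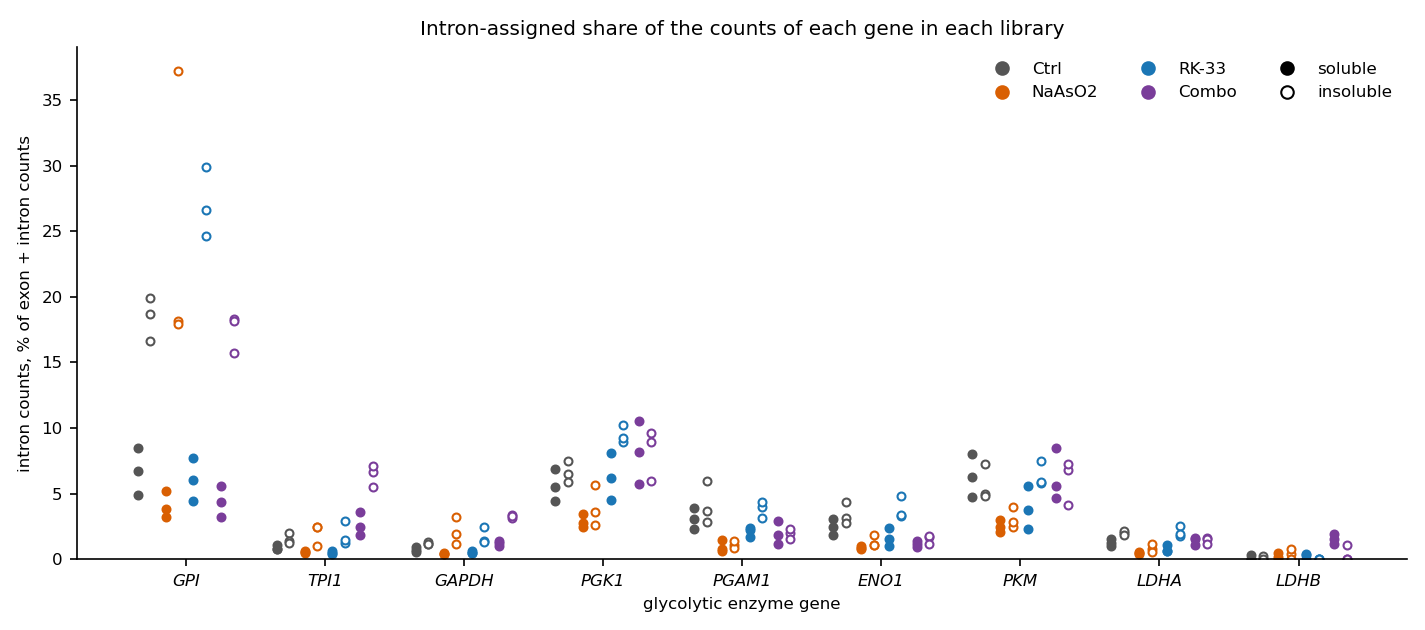
Intronic counts as a percent of exonic plus intronic counts of each gene except ALDOA, for every library. Soluble and insoluble libraries of the 4 treatments stand side by side. ALDOA, which is not drawn, had 0 intronic counts in every library. GPI stands between 15.7 and 37.2% in insoluble libraries and between 3.20 and 8.46% in soluble ones. Its top value is that of the third NaAsO2 insoluble library. TPI1 is highest in the Combo insoluble libraries.

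The members have short transcripts. Their representative transcripts had a median of 1792 nt, from 1285 nt for GAPDH to 4812 nt for PGK1, against 3486 nt over 13441 coding genes tested. The GC content of the 5' untranslated region, a feature linked to dependence on helicases, had a median of 65.4% over the members and 66.9% over tested coding genes. Across the 10 members, longer transcripts had higher log2 ratios of insoluble to soluble, with a Spearman rho of 0.648 in Ctrl, 0.636 after NaAsO2, 0.636 under RK-33 and 0.709 under Combo. PGK1, the longest, had the highest log2 fold change in each of the 4 treatments, and GAPDH, the shortest, the lowest in each. Across the 13441 coding genes the same rho was 0.494, 0.501, 0.597 and 0.593. Genes of a library are not independent replicates, so these are descriptions without a test.

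Over the 24 libraries, log2 levels of GAPDH and LDHA moved together with a Pearson r of 0.979, and those of ENO1 and GPI with 0.975, while GAPDH and PGK1 had -0.003 and PGK1 and PKM 0.510. The genes outside the list whose profile was most like the mean profile of the members, among 2282 genes averaging 100 CPM or more, were PA2G4 (r = 0.990), NONO (0.989), CAPNS1 (0.987), PTBP1 (0.987) and SMARCB1 (0.986). CAPNS1, the small calpain subunit, had log2 fold changes between fractions of -0.84 in Ctrl and -1.94 after NaAsO2, and PTBP1, a splicing regulator, of -0.25 and -0.95. All libraries share the fraction and treatment structure of the design, so the correlations carry no p.

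Other genes around the pathway were counted from lists of named genes. Over all genes tested, 24.4% higher and 26.6% lower were called in the insoluble fraction of Ctrl, 27.9% higher and 29.7% lower after NaAsO2, 29.2% higher and 30.4% lower under RK-33 and 24.1% higher and 27.97% lower under Combo. Of 13 genes of the hexokinase and phosphofructokinase steps, which feed and gate glycolysis, 7 were higher and none lower in the insoluble fraction of Ctrl, with a median log2 fold change of 0.46, and 5 were higher and 4 lower after NaAsO2, with a median of 0.29. HK1, the hexokinase of most tissues, had 1.32 in Ctrl (edgeR adjusted p = 1.4e-06) and 0.25 after NaAsO2 (0.198). PFKFB3, which makes the activator of phosphofructokinase, had 1.48 after NaAsO2 (edgeR adjusted p = 5.3e-09), and PGM1, which links glycogen to glucose-6-phosphate, -0.96 (1.2e-05). Under RK-33, 4 of these 13 were higher and 1 lower, and under Combo 4 and 3.

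The 7 genes of the pentose phosphate pathway gave no higher call in any treatment, with 3 lower in Ctrl (median -0.08), 6 after NaAsO2 (median -1.01), 6 under RK-33 (median -0.99) and 6 under Combo (median -1.13). TKT, transketolase, had 0.04 in Ctrl and -1.76 after NaAsO2 (edgeR adjusted p = 0.826 and 8.1e-11), and RPIA, ribose-5-phosphate isomerase, was highest after NaAsO2 at 0.35 (0.178). Of 12 tested genes of pyruvate oxidation, 3 were higher and 4 lower in Ctrl, and 3 and 8 after NaAsO2, with MPC2, a subunit of the mitochondrial pyruvate carrier, lowest at -2.08 and PDK3, a pyruvate dehydrogenase kinase, highest at 1.00. Among 10 genes of glucose and lactate transport, 2 were lower in Ctrl and 2 were higher and 2 lower after NaAsO2, with the lactate exporter SLC16A3 at 1.06 and its chaperone BSG at -1.20. The 11 HIF1A and MYC regulators had 1 higher and 2 lower in Ctrl, and 4 higher and 1 lower after NaAsO2, when EGLN1, an oxygen sensor that marks HIF1A for decay, was highest at 1.36 and MAX, the partner of MYC, lowest at -0.85.

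Isozymes of the members averaged 43.8 CPM or less in either fraction, below all members but LDHB and ALDOA. ENO2, the neuronal enolase, averaged 43.8 CPM in soluble and 40.6 CPM in insoluble libraries, with -0.14 between fractions in Ctrl and 0.05 after NaAsO2 (edgeR adjusted p = 0.475 and 0.806). ENO3, the muscle enolase, averaged 29.9 and 18.6 CPM, and ALDOC, the brain aldolase, 7.74 and 5.12 CPM. BPGM, which makes bisphosphoglycerate in red cells, had negative log2 fold changes between fractions in all 4 treatments and was called in each, with -1.47 in Ctrl. LDHAL6A and LDHC, lactate dehydrogenases restricted to few tissues, had the highest and the lowest value of the tested isozymes of that kind after NaAsO2, at 1.28 and -0.86. PKLR, GAPDHS and PGAM4 stayed under a mean of 1 CPM, and PGK2 and PGAM2 had 0 counts in all 24 libraries.

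Set beside other abundant mRNAs, the members' medians lay between those of ER-translated and those of ribosomal protein mRNAs in Ctrl. The 28 mRNAs of cytosolic ribosomal proteins had 1 higher and 25 lower in the insoluble fraction of Ctrl, with a median of -1.19, and 0 and 27 after NaAsO2, with a median of -1.93, when RPL3 was highest at -0.41 and RPL32 lowest at -3.32. Another 25 abundant mRNAs of cytosolic proteins had 4 higher and 18 lower in Ctrl (median -1.12) and 0 and 25 after NaAsO2 (median -1.68). In that list HSP90AB1, a cytosolic chaperone, was highest in both, at 0.95 and -0.48, and NME1, a nucleoside diphosphate kinase, was lowest after NaAsO2 at -2.72. Of 24 tested ER-translated mRNAs, 13 were higher and 7 lower in Ctrl (median 0.39), and 4 were higher and 12 lower after NaAsO2 (median -0.43), when the collagen mRNA COL5A2 was highest at 2.09 and the tetraspanin mRNA CD63 lowest at -1.73. The change of the fraction effect after NaAsO2 had a median of -0.62 for ribosomal protein mRNAs, -0.70 for the other cytosolic ones and -0.58 for ER-translated ones, beside -0.90 for the 10 enzymes. Markers of nuclear RNA, 4 tested, gave 3 higher and 1 lower in the insoluble fraction of Ctrl, with NEAT1 at 1.84 and MALAT1 at -1.07, and 2 and 1 after NaAsO2, with 1.48 and -1.89. In NaAsO2 against Ctrl 3 of the 4 were lower in the insoluble fraction (median -0.85) and 1 in the soluble fraction (median -0.35), and in Combo against NaAsO2 4 were higher in the insoluble fraction (median 0.96) and 3 in the soluble fraction (median 0.72). The part of these RNAs in the members' values was not tested.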

How the data were processed

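RNA of soluble and insoluble cytoplasm was measured in 24 libraries, prepared after rRNA depletion with a directional kit. Per the labels and the file headers, the authors aligned reads with STAR 2.7.2b to GRCh38.p13 and counted uniquely mapped fragments per gene with featureCounts 1.5.3 on GENCODE release 40. The deposited values are raw counts on exons and, in a separate table, on introns with a minimum overlap of 25 nt. No strand option was set, so overlapping antisense genes cannot be told apart, and fragments that fit several genes were left unassigned. Counts from back-splice junctions were deposited for 394 circRNAs, 0 of them hosted by a member, and were not used.

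Genes averaging 1 CPM or more (17666) were fitted in edgeR 4.0.16 (R 4.3.3) with TMM factors and the quasi-likelihood test over all 8 groups, in 16 comparisons, each with Benjamini-Hochberg adjustment over all genes. A gene was called at adjusted p under 0.05. This replaces the likelihood-ratio test of the study, which was an alternative, as was DESeq2 1.42.0. Log2 levels used a prior count of 2. The scripts were tested on simulated counts. Transcript lengths came from GENCODE release 44. No spike-in entry was in the tables, so no absolute scaling was made, and mitochondrial counts were 0. The members and lists were chosen with earlier results of these data known. All 10 members are named. Of each other list, cell type markers aside, the highest and the lowest gene after NaAsO2 are named, with HK1 and isozymes of the members. A listed gene is not reported here. Alternatives were other scalings, tests, filters, added processed copies, introns, GC correction, replicate blocks and leaving out libraries.

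The study compared the fractions of a condition as pairs in other tests, but no label ties same-numbered libraries to 1 lysate, and these did not deviate together from their group means (r from -0.288 to 0.110, over 0.1 in 1 of 12 pairs), so the fits of the fractions carry no block, and the ratios of same-numbered libraries are descriptions. Between treatments, all 3 same-numbered pairs were over 0.1 only for insoluble Combo and NaAsO2, where the number was used as a block in a fit chosen after seeing the data.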

Additional observations from a re-analysis of the deposited data

Results flagged for a closer look

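The ratio of insoluble to soluble level differed between treatments by the interaction test for several members. Between NaAsO2 and Ctrl the log2 ratio changed by -1.34 for GAPDH, -1.03 for ENO1, -0.84 for PGK1, -0.97 for PKM, -0.75 for LDHA, -1.66 for LDHB and -1.01 for GPI. Between RK-33 and Ctrl it changed by -0.94 for GAPDH and -0.76 for GPI. Dixon's test for an outlying library was not applied to groups of 3.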

How the results depend on the processing

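Counts of called members between fractions (6, 9, 8 and 8 of 10) stayed within 1.5 times under every setting run, and no called value changed direction. Single members were followed under each alternative for 101 values. Over the alternatives, 118 fits of these values lost a call, 89 gained one and 19 changed sign while uncalled. This leaves out the uncalled members of soluble RK-33 minus Ctrl, insoluble Combo minus NaAsO2 and Combo minus RK-33 in either fraction. It also leaves out the Combo changes of the fraction effect.

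Other counts moved as follows; the cause was not tested. For RK-33 minus Ctrl in the fraction effect (2), the count was 5 by DESeq2, 4 with a mean of at least 10 CPM, 0 with exons plus introns, 7 with the compared groups alone, 5 with the GC trend removed and 0 to 3 leaving out 1 library. For Combo minus NaAsO2, soluble (3), it was 0 by library size alone, 0 without a filter, 0 with processed copies added, 10 with the compared groups alone, 5 with the GC trend removed and 0 to 2 leaving out 1 library. For Combo minus NaAsO2, insoluble (0), it was 2 with RLE factors, 1 by the likelihood-ratio test, 2 by DESeq2, 2 with at least 10 CPM, 2 with exons plus introns, 2 with processed copies, 2 without both insoluble replicate 3 libraries, 2 with the replicate number as a block in the compared libraries and 0 to 3 leaving out 1 library. For NaAsO2 minus Ctrl it was 1 to 5 in the soluble fraction (6) leaving out 1 library, and in the insoluble fraction (5) 3 without a filter and 1 with the compared groups alone. For RK-33 minus Ctrl, insoluble (5), it was 9 with the compared groups alone. For Combo minus RK-33, insoluble (1), it was 0 by library size alone, 2 without a filter and 0 to 1 leaving out 1 library.

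With same-numbered fractions as a replicate block, the count for RK-33 minus Ctrl in the fraction effect was 1, since GPI had an edgeR adjusted p of 0.0506, and with the GC trend removed as well it was 4. With the replicate number as a block across treatments, LDHA lost its call for Combo minus NaAsO2 in the soluble fraction. Without the GC correction these 2 blocks changed no other call. The GC correction, alone or with the block, the block in insoluble Combo and NaAsO2 alone and the fit without both insoluble replicate 3 libraries were chosen after seeing the data. Same-numbered libraries of different treatments correlated from -0.310 to 0.667 in their deviations, over 0.1 in 4 of 24 pairs, 3 of which were those of insoluble Combo and NaAsO2; there libraries with different numbers correlated from -0.710 to 0.593.

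Log2 ratios of the members' summed share in Ctrl went from -0.34 to -0.46 without the RN7SL genes, -0.59 with introns and -0.41 to -0.27 leaving out 1 library, in NaAsO2 from -1.14 to -1.28 without RN7SL, and in RK-33 from -0.95 to -1.12 without RN7SL and -1.31 with introns. With the longest coding transcript as length, members at their place in the level order numbered 6, 6 and 4 in soluble Ctrl, NaAsO2 and RK-33, 8 in soluble Combo, and 6, 8, 6 and 5 in insoluble Ctrl, NaAsO2, RK-33 and Combo.

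Uncalled values that changed sign were PGK1 between fractions in RK-33 (-0.043 without a filter, -0.12 with introns, -0.012 with the GC trend removed, -0.0049 with GC and block) and in Combo (from -0.062 to 0.13 leaving out 1 library, -0.049 without both insoluble replicate 3 libraries), PGK1 in insoluble NaAsO2 minus Ctrl (0.014 with GC), PKM there (0.024 with introns, -0.45 to 0.064 leaving out 1 library), ALDOA there (0.16 with introns, -0.34 to 0.093 leaving out 1 library) and TPI1 in the NaAsO2 change of the fraction effect (-0.071 with the block, -0.10 with GC, -0.17 with GC and block, -0.40 without both insoluble replicate 3 libraries, -0.42 to 0.46 leaving out 1 library). This list covers only the followed values. Elsewhere, leaving out 1 library gave members' medians of both signs. They ran from -0.031 to 0.19 for soluble RK-33 minus Ctrl and from -0.064 to 0.13 for soluble Combo minus RK-33. For the Combo changes of the fraction effect they ran from -0.022 to 0.33 against NaAsO2 and from -0.056 to 0.22 against RK-33. Depth limits ALDOA and LDHB most, with as few as 32 and 36 counts in a library.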
